A study of Homo sapiens with 9 samples.

Results

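Gedunin, a limonoid from the neem tree described as an inhibitor of HSP90 function, was given together with the synthetic androgen R1881 (methyltrienolone) to LNCaP cells, and expression was compared with that of cells labelled vehicle. LNCaP is an androgen-responsive human prostate cancer line that came from a lymph node metastasis. The comparison uses 6 of the 9 arrays of the study: the 3 titled with 1 nM R1881 and 20 µM gedunin for 24 h, called the gedunin arrays here, and the 3 titled with ethanol and DMSO, the solvents. Before 24 h of treatment, both groups were kept for 2 days on 10% serum that charcoal had stripped of steroid hormones. The 3 remaining arrays are labelled 1 nM R1881 alone, with 6 h in their titles and 24 h in their descriptions. They enter the estimate of the spread in the fit, and otherwise their values are set beside the others for orientation. Arrays are marked as biological replicates 1 to 3, but the labels do not say whether they came from separate passages, so p-values measure the spread between these samples. As labelled, the groups differ in gedunin and in R1881 at once, no group received gedunin alone, and the parts of the 2 agents cannot be told apart.

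Levels of textbook androgen targets are at odds with the labels of the control groups. FKBP5, a co-chaperone of steroid receptors that androgen induces strongly, measured 1796, 1970.5 and 1679 on the arrays labelled vehicle and 43.3, 48.8 and 43.3 on the arrays labelled R1881 (deposited linear intensity). KLK3, which encodes prostate-specific antigen, measured 11947, 12290.0 and 11280.5 on the arrays labelled vehicle and 1375, 1424 and 1224 on those labelled R1881. If these 2 labels were exchanged, the comparison would set gedunin plus androgen against androgen alone; which is the case was not settled here, and every direction below is stated by label. Contrasts among the 3 groups share arrays, so values of the arrays labelled R1881 are given as levels beside the comparison and add no independent support to it.

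HSP90 is an abundant chaperone that holds steroid receptors and many kinases in a form that can be activated. When HSP90 is inhibited, the heat shock factor HSF1 is set free and turns on chaperone genes. Electrophilic compounds act on another sensor: they modify KEAP1, which otherwise sends the transcription factor NRF2 (gene NFE2L2) to degradation, and NRF2 then turns on genes of glutathione, thioredoxin, NADPH and quinone metabolism. A further programme, the integrated stress response, works through the factor ATF4 and raises genes of amino acid uptake and synthesis.

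Over 11963 genes tested, 3219 differed between the gedunin arrays and the arrays labelled vehicle (26.9% of those tested, limma with Benjamini-Hochberg adjusted p under 0.05). Of these, 1800 were higher (15%) and 1419 lower (11.9%) on the gedunin arrays. Most differences were small: the median log2 fold change was 0.39 among the higher and -0.37 among the lower genes, and 1334 and 1045 of them lay under 1.5-fold. At least 2-fold differences were found for 141 higher genes (1.18%) and 123 lower genes (1.03%), at least 8-fold differences for 6 and 6. The median over all genes was -0.01. A gene list with close to these shares of its members higher and lower is near the background, and its counts are then no result about the list. Values of the 3 arrays of a group did not overlap with those of the other for 3167 of the 3219 genes. Among all 11963 genes this held for 4587, so a lack of overlap adds little to a call. Log2 values correlated across genes at 0.9977 to 0.998 within the gedunin group, 0.9971 to 0.9981 within the group labelled vehicle and 0.9802 to 0.9826 between them. Array medians were 52.4 to 54.5, and where a group averages below 52.4 its level is close to background and a fold against it is approximate. RMA makes the arrays alike in distribution, so a change in total RNA per cell is not seen, and in bulk RNA fewer cells of a kind cannot be told apart from less RNA per cell.

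**Figure D1:**
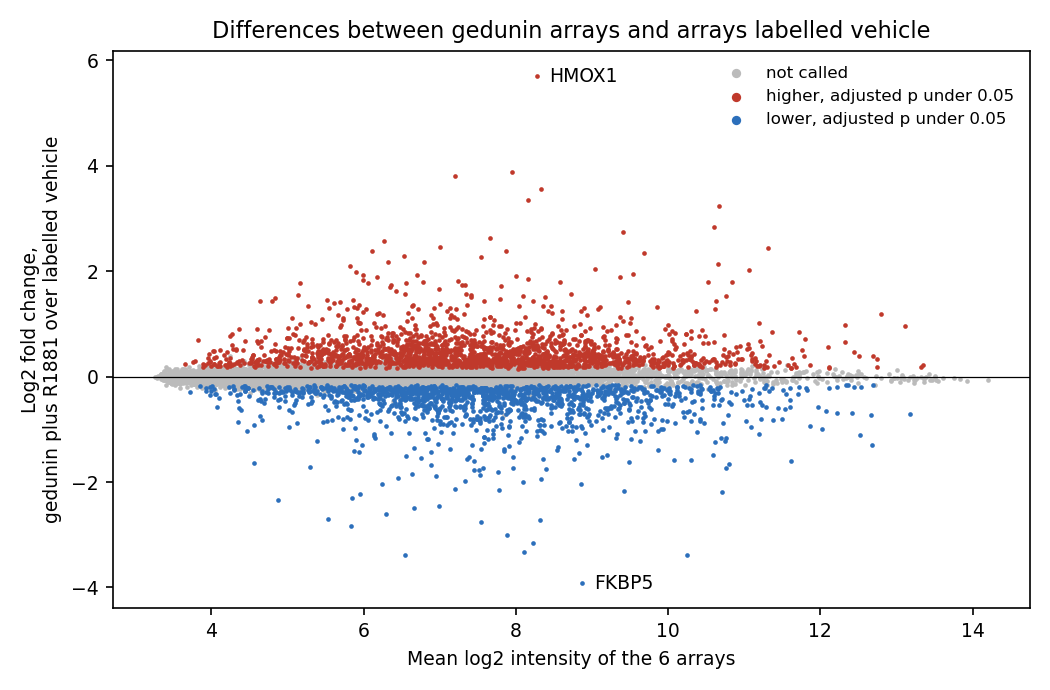
Log2 fold change of the gedunin arrays over the arrays labelled vehicle (vertical) against the mean log2 intensity of both groups (horizontal) for 11963 genes, each a point. Coloured points are the 1800 higher and 1419 lower genes at an adjusted p under 0.05; HMOX1 at 5.70 and FKBP5 at -3.91 lie at the ends.

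The largest rise of all was in HMOX1, which encodes haem oxygenase 1, the inducible enzyme that breaks down haem and a classic NRF2 target. It measured 2861, 2039.8 and 1936 on the gedunin arrays, 48.4, 39.2 and 42.0 on the arrays labelled vehicle and 41.0, 47.6 and 43.6 on those labelled R1881. Gedunin arrays thus stood far above both other groups, which lie below 52.4, close to background. The log2 fold change was 5.70 ± 0.13 (SE; 52.1-fold, adjusted p = 7.06e-12).

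Quinone, carbonyl and aldo-keto reductases, which detoxify reactive carbonyls and quinones, were with some NRF2-linked genes the list with the highest median. Of 15 measured members 14 rose and 1 fell, and the median log2 fold change was 1.49. That median is the value of AKR1C3, 1 of 2 members below the lowest array median in both groups, so it is approximate. AKR1C2 and AKR1C1, aldo-keto reductases that also reduce steroids including dihydrotestosterone, rose most in this list. AKR1C2 measured 1033, 988 and 839.8 on the gedunin arrays against 62.9, 69.5 and 61.5 on the arrays labelled vehicle (3.88 ± 0.10, SE, adjusted p = 2.84e-11). AKR1C1 measured 1138, 1205 and 991 against 96.6, 88.2 and 98.8, with no overlap between the groups in either gene. Their sequences are nearly alike, so these probe sets cannot fully separate them, and 1 dim further probe set of AKR1C1 gave 0.06. TRIM16, an E3 ubiquitin ligase counted with this list as an NRF2-linked gene, measured 954, 926 and 867 against 94.0, 82.7 and 93.2 (10.2-fold). NQO1, NAD(P)H quinone dehydrogenase 1 and a standard readout of NRF2, measured 4301, 4436 and 4290.5 against 1013, 1079 and 1101 (4.08-fold, adjusted p = 3.28e-11). Its 2 further probe sets gave log2 fold changes of 2.20 and 2.44. The carbonyl reductase CBR3 rose by 2.28, PIR (pirin) by 2.05, ALDH3A2 (fatty aldehyde dehydrogenase) by 1.79 and NQO2 by 1.24 on the log2 scale. AKR7A2 was the member that fell (-0.44 ± 0.06). The list was chosen with earlier results known and does not hold the whole family: outside it AKR1C4 (-0.10), AKR1D1 (-0.04) and AKR7A3 (-0.15) did not pass and CBR4 fell (-0.21). The call of CBR4 was lost without gedunin replicate 1 or 2 (adjusted p = 0.0595 or 0.15) and without labelled vehicle replicate 1, 2 or 3 (0.0659, 0.117 or 0.0599).

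**Figure D2:**
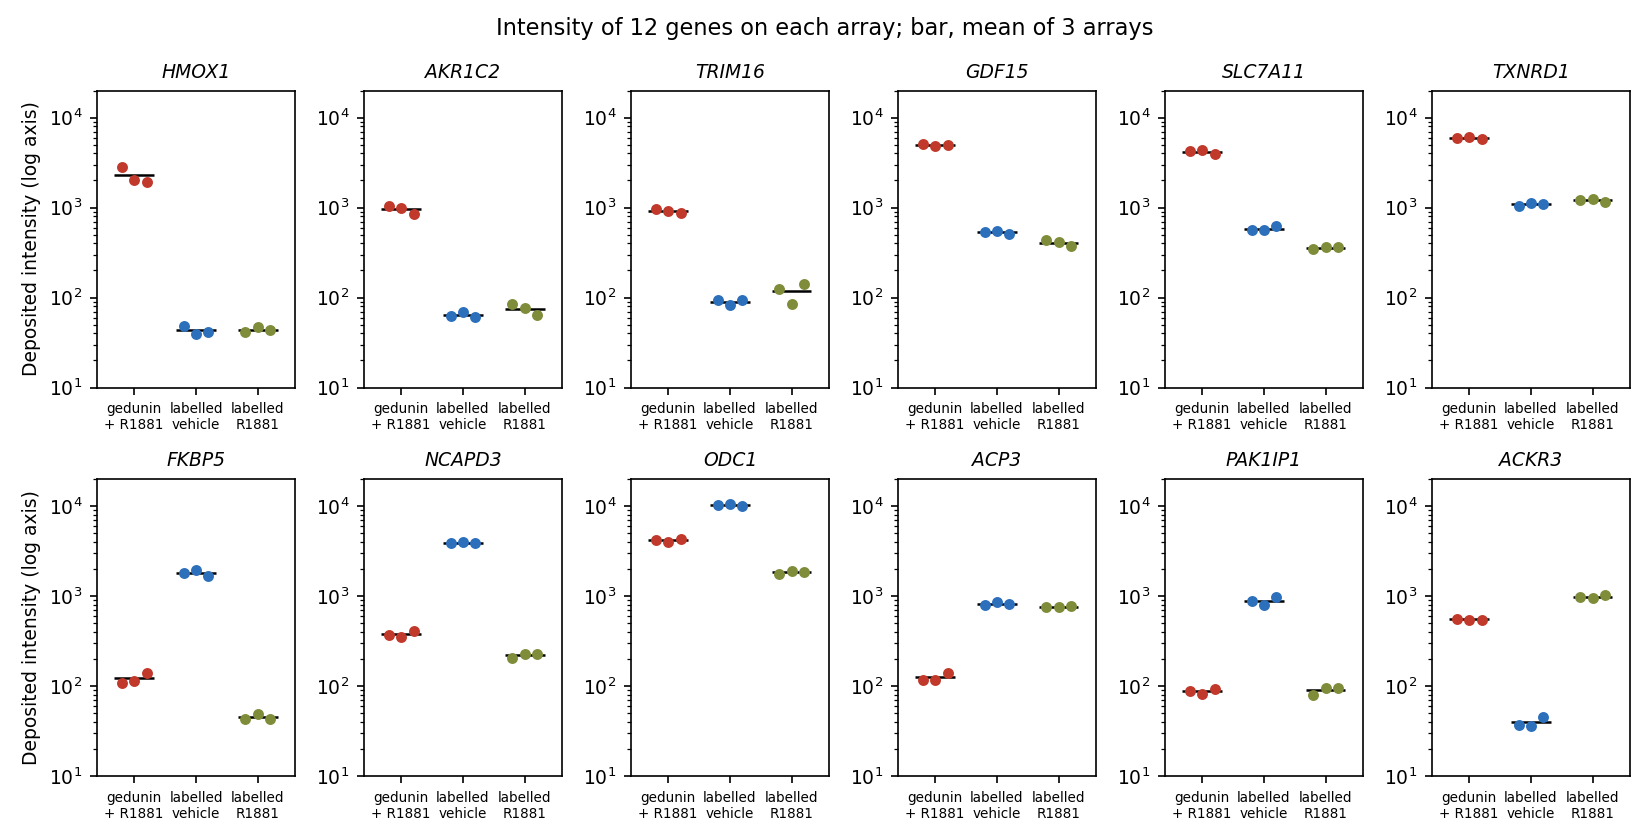
Deposited linear intensity (logarithmic axis) of 12 genes on each of 9 arrays, with points for single arrays and a bar at the mean of each group of 3. In the upper row HMOX1, AKR1C2, TRIM16, GDF15, SLC7A11 and TXNRD1 are high on the gedunin arrays alone; in the lower row FKBP5, NCAPD3 and ODC1 are high on the arrays labelled vehicle, ACP3 on both control groups, while PAK1IP1 has overlapping values on the other 6 arrays and ACKR3 is high on the gedunin arrays and on those labelled R1881.

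Cystine import and the first step of glutathione synthesis rose, while most glutathione transferases and peroxidases measured did not pass the test. Most genes did not pass either, with 26.9% called over all genes, so the latter is no result about these enzymes. Of 29 measured members of the glutathione list, 8 rose, 4 fell and 17 did not pass, with a median of 0.04. SLC7A11, the cystine carrier of system xc-, measured 4225, 4373 and 3961 on the gedunin arrays and 568, 564 and 620.0 on the arrays labelled vehicle (7.17-fold, adjusted p = 7.06e-12). Its partner chain SLC3A2 measured 1516, 1500.4 and 1389 against 385, 373 and 379 (3.87-fold). Both subunits of glutamate-cysteine ligase, the rate-limiting enzyme, rose, the modifier subunit GCLM from 264 ± 32.1 to 1772 ± 112 (mean ± SD, n = 3; 6.73-fold) and the catalytic subunit GCLC from 123 ± 4.85 to 406 ± 28.9 (3.28-fold). The next enzyme, glutathione synthetase (GSS), fell by a little (-0.26 ± 0.06), and glutathione reductase (GSR, 0.11 ± 0.06, adjusted p = 0.2) and the peroxidases GPX1 (0.08) and GPX4 (0.07) did not pass. Among transferases GSTA4 rose (1.28), as did GSTO1 (0.67) and GSTK1 (0.64). Of the export pumps ABCC5 rose (0.41) and ABCC1 (-0.39) and ABCC4 (-0.81) fell; ABCC4 is also in the androgen-induced list.

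In the thioredoxin list 6 of 15 members rose, 5 fell and 4 did not pass (median 0.09). TXNRD1, thioredoxin reductase 1, measured 5863, 6052 and 5848 on the gedunin arrays against 1033, 1137 and 1096 on the arrays labelled vehicle (5.44-fold, adjusted p = 9.11e-12). PRDX1, a cytosolic peroxiredoxin, measured 7109, 7174 and 7407 against 3585, 3731 and 3664 (1.98-fold), and thioredoxin itself (TXN) rose by 0.48 and superoxide dismutase SOD1 by 0.66. PRDX6 fell, from 6941 ± 383 to 4324 ± 45.1, and was lower still on the arrays labelled R1881 (3578 ± 144). The p53-linked sestrin SESN1 fell by a log2 difference of -0.72; its 3 deposited values on the arrays labelled vehicle are equal. Such ties occur in 98 genes of that group and 105 of the gedunin group.

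Genes linked to the supply of NADPH, the reducing power for these systems, did not move as one. ME1, cytosolic malic enzyme, rose most, from 766 ± 8.87 to 3378 ± 138 (4.41-fold, adjusted p = 1.77e-11), with 3309, 3537 and 3289 on the gedunin arrays against 771, 771 and 755. In the pentose phosphate pathway PGD rose by 1.41, TKT (transketolase) by 1.32 and TALDO1 (transaldolase) by 0.84. The mitochondrial transhydrogenase NNT (-0.20), the isocitrate dehydrogenase IDH1 (-0.21) and the folate enzyme MTHFD1 (-0.57) fell. In all, 7 of 12 list members rose and 3 fell (median 0.34). Not every member makes NADPH itself: TKT and TALDO1, for example, do not. The calls of NNT and IDH1 did not hold when single arrays were left out: NNT had an adjusted p of 0.149 or 0.0948 without gedunin replicate 1 or 3 and 0.117 or 0.137 without labelled vehicle replicate 1 or 2. For IDH1 it was 0.074 or 0.0571 without gedunin replicate 1 or 2 and 0.0676 without labelled vehicle replicate 2.

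Of 21 genes of haem and iron handling, 9 rose, 1 fell and 11 did not pass (median 0.19). Besides HMOX1, ALAS1, the first enzyme of haem synthesis, rose from 327 ± 18.9 to 736 ± 32.6 (2.25-fold), and ABCB6, a porphyrin transporter, rose by 1.02 on the log2 scale. A further, dim probe set of ABCB6 gave -0.06, not called. Biliverdin reductase B (BLVRB, 0.87) and the ferritin light chain (FTL, 0.86) rose, and ALAD, the second enzyme of haem synthesis, fell (-0.33). The transcripts of the regulators moved less: NFE2L2 measured 368, 358 and 358 on the gedunin arrays and 251, 255 and 243 on the arrays labelled vehicle (1.45-fold). KEAP1 rose 1.57-fold and the repressor BACH1 1.64-fold. SQSTM1 (p62), an autophagy receptor that binds KEAP1, measured 2859.9, 2633 and 2746 against 811, 766 and 791 (3.48-fold). In that list 5 of 7 rose and 2 did not pass (median 0.53). The call of ALAD was lost without gedunin replicate 1 or 2 (adjusted p = 0.0593 or 0.19) and without labelled vehicle replicate 2 or 3 (0.148 or 0.111).

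Chaperone genes of the heat shock response rose as well, by smaller factors. Of 28 measured genes of the HSP70, HSP110 and HSP40 families with their BAG cofactors, 17 rose and 0 fell (median 0.33). DNAJB4, an HSP40 co-chaperone, measured 182, 143 and 130.3 on the gedunin arrays and 44.4, 46.8 and 44.6 on the arrays labelled vehicle (3.32-fold). BAG3, which links HSP70 to selective autophagy, measured 538, 559 and 532 against 231, 237 and 237 (2.31-fold, adjusted p = 1.77e-09). HSPH1 (HSP110) rose by 0.96, DNAJA1 by 0.67 and DNAJB1, a sensitive HSF1 target, by 0.57. HSPA6, an HSP70 gene that is nearly silent outside strong heat stress, measured 31.5 ± 0.53 against 32.9 ± 1.30 and did not pass (-0.06 ± 0.06, adjusted p = 0.561). HSPA1A and HSPA8, the best known HSP70 genes, are not analysed here because no probe set with 1 symbol represents them.

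Among 13 small heat shock proteins and heat shock factors 4 rose, 1 fell and 8 did not pass (median -0.05). CLU, the secreted chaperone clusterin, measured 537, 460.5 and 518 on the gedunin arrays and 88.4, 88.1 and 70.0 on the arrays labelled vehicle (6.17-fold). HSPB1 (HSP27) measured 2875, 2949 and 2997 against 1089.5, 992 and 969.9 (2.89-fold), and HSPB8, the partner of BAG3, 163, 162 and 131 against 55.8, 43.2 and 49.4 (3.07-fold). HSF1 itself did not pass (-0.05 ± 0.06, adjusted p = 0.665). In the mitochondrial and cytosolic chaperonins and prefoldins 5 of 15 rose and 1 fell (median 0.10), led by HSPE1 (HSP10, 0.57), PFDN4 (0.49) and HSPD1 (HSP60, 0.39).

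Both cytosolic HSP90 genes rose. HSP90AA1, the stress-inducible paralog, measured 12358, 12215 and 12514 on the gedunin arrays and 6107, 6641 and 6422 on the arrays labelled vehicle (1.94-fold, adjusted p = 2.46e-08). The constitutive paralog HSP90AB1 measured 6730.1, 6438 and 6861 against 4964, 5275 and 4965 (1.32-fold), and PTGES3, which encodes the co-chaperone p23, 3619.7, 3464 and 3443 against 2878, 3077 and 2948 (1.18-fold, adjusted p = 0.00655). The values of the groups did not overlap in any of the 3, as in 4587 of all 11963 genes tested, and the rise of PTGES3 was small. Over HSP90 paralogs and co-chaperones 11 of 23 rose and 2 fell (median 0.19). Those that fell were FKBP5 (-3.91), also an androgen target, and CDC37, the kinase-loading co-chaperone (-0.36). Transcripts of HSP90 client proteins were near the background, with 5 up and 5 down of 31 (median -0.05). Over all genes 15% were higher and 11.9% lower. IGF1R, the IGF1 receptor, fell from 91.5 ± 13.1 to 39.6 ± 1.82; a further, also dim, probe set gave -2.58 and another, not called, -0.13. PLK1 (0.53) and ERBB2 (0.50) rose.

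**Figure D3:**
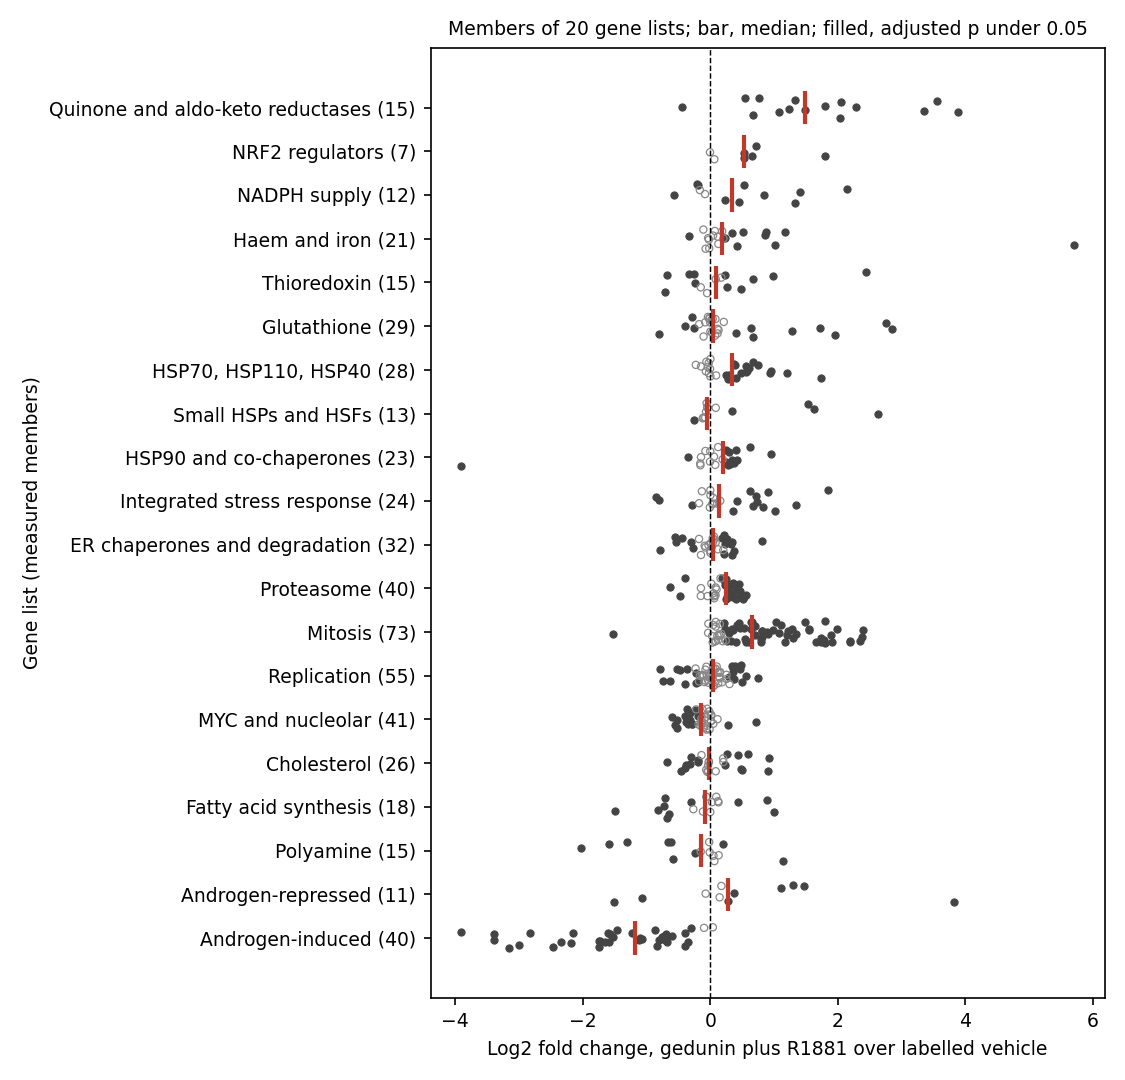
Log2 fold change of the gedunin arrays over the arrays labelled vehicle for every measured member of 20 gene lists (points, filled where the adjusted p is under 0.05) with the median of each list as a bar; the dashed line marks the median of all genes at -0.01. The quinone and aldo-keto reductase list has the highest median (1.49), followed by mitosis (0.65), and androgen-induced genes the lowest (-1.17).

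Genes of the integrated stress response rose in part. Of 24 regulators 11 rose, 3 fell and 10 did not pass (median 0.13). ATF3, a stress-induced transcription factor, measured 612, 546 and 476 on the gedunin arrays and 151, 151 and 151 on the arrays labelled vehicle, 3 equal deposited values (3.60-fold, adjusted p = 1.96e-09). DDIT3, which encodes the pro-apoptotic factor CHOP, measured 549, 526 and 489 against 214, 208 and 192 (2.54-fold), with 217, 220.2 and 178 on the arrays labelled R1881. NUPR1 rose by 1.02, TRIB3 by 0.91, STC2 by 0.83 and ATF4 by 0.71. CHAC1, often among the strongest ATF4 targets, measured 103, 100.1 and 99.8 against 104, 94.6 and 104 and did not pass (adjusted p = 0.997). TNFRSF10B, the TRAIL receptor DR5, fell (-0.86 ± 0.06), as did VLDLR (-0.81) and EIF2S1 (-0.29).

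Downstream, 7 of 20 amino acid transporters rose and 2 fell (median 0.06), 5 of 20 synthesis enzymes rose and 6 fell (median 0.00), and 8 of 18 tRNA synthetase genes rose and 2 fell (median 0.15). ASNS, asparagine synthetase, measured 2056, 2067 and 2000.4 on the gedunin arrays and 823, 898 and 859 on the arrays labelled vehicle (2.38-fold). The serine pathway enzymes PSAT1 (0.87) and PHGDH (0.73) rose, whereas GOT2 (-0.77), glutamine synthetase GLUL (-0.49) and PYCR1 of proline synthesis (-0.32) fell. Beyond the chains of system xc-, the transporters that rose did so by little, SLC7A5 by 0.47 and SLC7A1 by 0.46. EPRS1 led the synthetases (0.81), and TARS1 fell (-0.42).

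Promoter sequence was set beside these rises, since each programme has a known DNA element. Short cores were searched on both strands in the 250 bases before each RefSeq gene start (GRCh38.p14): TGACNNNGC for the antioxidant response element, GAANNTTC for the heat shock element and TGATGNAA for the amino acid response element. A gene with several starts counts as holding a core if any of its starts does. A match is a description of letters only. Of 43 members called higher with a promoter in the table, 12 held TGACNNNGC (27.9%), against 8 of 38 members not called higher (21.1%) and 1527 of 9562 genes tested (16%). GAANNTTC stood before 11 of 32 chaperone genes called higher (34.4%), 5 of 30 not called higher (16.7%) and 6.3% of genes tested. TGATGNAA stood before 6 of 27 called higher (22.2%), 6 of 38 not called higher (15.8%) and 3.0% of genes tested. In each case members not called higher also held the letters more often than genes at large, and no test was made. Over all 35116 promoters of the table the shares were 10.9%, 5.8% and 3.1%. AKR1C2, AKR1C1 and TRIM16, DNAJB4 and BAG3, and DDIT3 have a promoter in the table without a match, and HMOX1, SLC7A11 and CLU have none in the table.

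The stretches below, 80 bases each, are shown because they belong to the largest rises of each group whose promoter held the letters; they were thus picked by the match and by the values. Each reads 5′ to 3′ on the strand of the gene, with the match in capitals. GCLM lies at chr1:93909431-93909510 (minus strand), TXNRD1 at chr12:104215644-104215723 (plus strand) and ME1 at chr6:83431145-83431224 (minus strand). HSPB8 lies at chr12:119178807-119178886 (plus strand), HSPB1 at chr7:76302455-76302534 (plus strand) and HSP90AA1 at chr14:102087084-102087163 (minus strand). ATF3 lies at chr1:212565180-212565259 (plus strand) and ASNS at chr7:97872433-97872512 (minus strand).
GCLM: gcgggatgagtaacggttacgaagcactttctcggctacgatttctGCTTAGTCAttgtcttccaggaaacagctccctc
TXNRD1: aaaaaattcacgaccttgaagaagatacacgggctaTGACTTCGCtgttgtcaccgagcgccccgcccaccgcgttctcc
ME1: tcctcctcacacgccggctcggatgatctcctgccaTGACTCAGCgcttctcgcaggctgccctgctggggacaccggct
HSPB8: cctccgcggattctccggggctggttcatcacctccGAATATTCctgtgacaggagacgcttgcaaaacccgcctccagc
HSPB1: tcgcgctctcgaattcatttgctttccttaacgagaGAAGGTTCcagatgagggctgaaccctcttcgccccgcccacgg
HSP90AA1: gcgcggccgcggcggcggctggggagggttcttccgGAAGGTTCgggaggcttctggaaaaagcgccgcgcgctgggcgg
ATF3: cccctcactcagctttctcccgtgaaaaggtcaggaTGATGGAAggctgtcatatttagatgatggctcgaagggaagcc
ASNS: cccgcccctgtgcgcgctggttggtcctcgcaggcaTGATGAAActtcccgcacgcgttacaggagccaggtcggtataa
In GCLM the match reads on the opposite strand and starts 34 bases before the gene start. In TXNRD1 the match starts 99 and in ME1 137 bases before the start used here. TXNRD1 has a further start with a match 102 bases before it, and HSP90AA1, ATF3 and ASNS each have a further start without a match. The heat shock core of HSPB8 starts 88, that of HSP90AA1 83 and that of HSPB1 182 bases before the start, and the amino acid response core of ASNS 68 and of ATF3 191 bases before it.

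Genes of the endoplasmic reticulum moved in both directions. Of 32 ER chaperones, folding enzymes and degradation factors 10 rose and 6 fell, with a median log2 fold change of 0.04. HSPA5 (BiP), the main ER chaperone, measured 5299, 5149.6 and 5346 on the gedunin arrays and 5218, 5499.5 and 5056 on the arrays labelled vehicle, and did not pass (0.00 ± 0.06, adjusted p = 0.984). It was 2885, 3095 and 3085 on the arrays labelled R1881. CRELD2, an ER stress-induced secretory protein, rose from 914 ± 19.1 to 1601 ± 84.3 (1.75-fold). DNAJC10 (-0.79), DNAJB9 (-0.55), HERPUD1 (-0.54) and XBP1 (-0.27), the transcription factor of the IRE1 branch, fell. Both control groups are needed to place DNAJB9, which measured 511, 548 and 498 on the gedunin arrays, 739, 805 and 742 on the arrays labelled vehicle and 112, 115 and 113 on those labelled R1881. Of 38 genes of ER translocation and COPII export 10 rose and 11 fell (median -0.08), with SRP19, a subunit of the signal recognition particle, the lowest (-0.88) and the signal peptidase subunit SPCS2 the highest (0.41). The count of 10 ER genes that rose was 5 without gedunin replicate 1 and 6 without labelled vehicle replicate 1 or 3.

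Most proteasome genes rose, each by less than 1.5-fold. Of 40 subunits, activators and assembly factors 25 rose, 3 fell and 12 did not pass, with a median of 0.25 and a highest value of 0.56. PSMD2, of the regulatory particle, measured 1114, 1026 and 1069.6 against 714, 724 and 732 (1.48-fold), and the deubiquitinase subunit PSMD14 1020.1, 1030.5 and 1017 against 678, 724 and 726 (1.44-fold). PSMB1 of the core particle rose by 0.51. PSMD5 (-0.64), an assembly chaperone, PSMC4 (-0.47) and PSME3 (-0.40) fell. Ubiquitin genes and extraction factors were mixed, 6 up and 3 down of 21 (median 0.11), with ZFAND5 at 0.72 and the ubiquitin-activating enzyme UBA1 at -0.42.

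Of 48 autophagy and lysosome genes 19 rose, 3 fell and 26 did not pass (median 0.13). After SQSTM1, the largest rises were GABARAPL1, which encodes an autophagosome membrane protein (0.96), and the lysosomal hydrolases TPP1 (0.90), GLA (0.90) and CTSL (0.68). WIPI1, an early autophagy protein, went the other way, with 68.6, 61.0 and 64.5 on the gedunin arrays, 231, 247 and 235 on the arrays labelled vehicle and 31.6, 33.5 and 26.5 on those labelled R1881 (3.67-fold lower, adjusted p = 2.18e-09). Metallothioneins, which bind zinc and copper, and zinc transporters rose in 7 of 13 cases with 1 fall (median 0.30). MT2A measured 981, 911 and 918 against 549, 509 and 569 (1.73-fold); MT1G, MT1F, MT1H and MT1X rose by 0.68, 0.62, 0.62 and 0.52, but the probe sets of these near-identical genes cannot fully separate them.

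Androgen-linked genes were among the largest falls. Of 40 measured genes that androgen induces, 38 fell and 0 rose, with a median log2 fold change of -1.17. The list was chosen with earlier results of these data known, so its count is no independent test. TARP and TRPM8, the members that did not pass, were at 31.6 ± 2.53 and 49.1 ± 2.83 on the gedunin arrays, below the lowest array median. FKBP5 had 109.5, 115 and 139.7 on the gedunin arrays against the 1796, 1970.5 and 1679 on the arrays labelled vehicle given above (-3.91 ± 0.09, SE, 15-fold lower, adjusted p = 9.11e-12). NCAPD3, a condensin II subunit, measured 368, 350.4 and 409.7 against 3923, 3947 and 3905 (10.5-fold lower). EAF2, an elongation factor partner, and MAF, a bZIP transcription factor, were 8.90-fold and 8.02-fold lower. ORM1, an acute phase protein gene (10.5-fold), LIFR, a cytokine receptor gene (7.12-fold), and STEAP4, a metalloreductase gene (5.07-fold), were lower too, against gedunin arrays at background level. SGK1, a kinase, measured 52.5, 55.1 and 55.1 against 315, 318 and 267 (5.52-fold lower).

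TMPRSS2, KLK2, KLK3 and NDRG1, common markers of androgen action in prostate cells, fell to levels that lay between those of the control groups. TMPRSS2, the protease whose promoter drives ETS fusions in prostate cancer, measured 889, 892 and 1095 on the gedunin arrays, 3220.5, 3298 and 2957 on the arrays labelled vehicle and 191, 190.0 and 179 on those labelled R1881. KLK2 measured 947, 933 and 1140.3, 3242, 3338 and 2913 and 164, 145 and 160.0 in the same order of groups. KLK3 measured 6872, 7144 and 7629.9 on the gedunin arrays and was 1.64-fold lower than on the arrays labelled vehicle (-0.71 ± 0.07, SE, adjusted p = 4.39e-06), beside 3.15-fold for KLK2 and 3.31-fold for TMPRSS2. NDRG1, also a hypoxia-linked gene, measured 780.1, 747 and 837, 3652, 3263 and 3829 and 215, 257 and 276. For PAK1IP1, a ribosome biogenesis factor outside the lists, the gedunin arrays (88.4, 80.8 and 92.6) and the arrays labelled R1881 (79.8, 95.5 and 95.5) had overlapping values, with 878, 788 and 972 on the arrays labelled vehicle. ACAD8, a mitochondrial dehydrogenase of valine breakdown, had the same order, with 64.5, 77.5 and 72.7, 501, 492 and 463 and 86.3, 68.3 and 79.3 on the gedunin arrays, those labelled vehicle and those labelled R1881. ACP3, prostatic acid phosphatase, was low on the gedunin arrays only: 117, 117 and 141 against 801, 856 and 811 on the arrays labelled vehicle and 750.3, 759 and 768 on those labelled R1881 (6.62-fold lower than labelled vehicle, adjusted p = 3.28e-11).

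**Figure D4:**
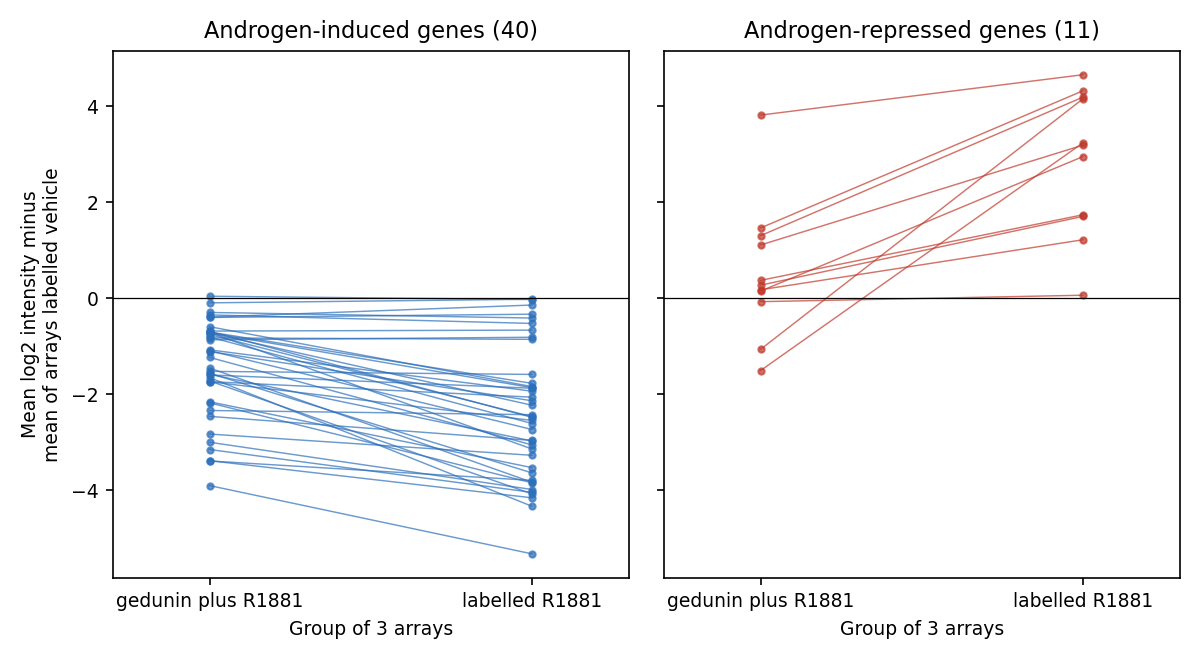
Mean log2 intensity, relative to the mean of the arrays labelled vehicle, of the 40 measured androgen-induced genes (left) and the 11 androgen-repressed genes (right) on the gedunin arrays and the arrays labelled R1881; each line is a gene. On the gedunin arrays FKBP5 has the lowest value of the left panel (-3.91) and ACKR3 the highest of the right panel (3.81).

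Genes that androgen represses did not move one way: 6 of 11 rose, 2 fell and 3 did not pass (median 0.27). ACKR3, a chemokine scavenger receptor, measured 562, 546 and 547 on the gedunin arrays, 37.3, 36.0 and 44.8 on the arrays labelled vehicle and 989, 957 and 1019.7 on those labelled R1881 (14.1-fold over labelled vehicle). BCHE (butyrylcholinesterase, 1.46) and the androgen-conjugating UGT2B17 (1.30) and UGT2B15 (1.11) rose less, the UGT2B genes being near-identical paralogs that their probe sets may not separate. PEG3 fell: it measured 60.0, 57.3 and 50.7 on the gedunin arrays, 157, 163 and 157 on the arrays labelled vehicle and 1573, 1460.0 and 1464 on those labelled R1881. CAMK2N1, an inhibitor of a calmodulin-dependent kinase, also fell, with means of 56.8 ± 1.84, 119 ± 10.7 and 2121 ± 77.9 in that order. For these 2 genes the gedunin arrays were thus the lowest and the arrays labelled R1881 the highest of the 3 groups. DDC, aromatic L-amino acid decarboxylase, did not pass (0.15 ± 0.06, adjusted p = 0.0709), with 3464 ± 156 on the arrays labelled R1881 against 496 ± 2.04 on the gedunin arrays.

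Over all 28 genes of androgen conjugation, reduction and oxidation, 9 rose and 3 fell (median 0.02). Besides the AKR1C and UGT2B genes, AKR1C3, which makes testosterone from androstenedione, measured 51.4, 42.6 and 50.8 against 15.4, 18.9 and 17.2, below the lowest array median in both groups. UGT2B28 fell (-1.05), and the 5-alpha-reductase SRD5A1 did not pass (0.17). Receptor coregulators and pioneer factors were split, 5 up and 4 down of 20 (median -0.05). The corepressor TLE1 rose (1.01), though a further probe set of it gave 0.06, not called, and PIAS1 (-1.03), HOXB13 (-0.49) and FOXA1 (-0.34), the pioneer factor of prostate enhancers, fell.

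Polyamine synthesis, which is very active in prostate epithelium, fell at several steps. 7 of 15 members fell and 2 rose (median -0.15). ODC1, ornithine decarboxylase and the entry to the pathway, measured 4158, 3997 and 4351 on the gedunin arrays, 10259, 10566 and 10054 on the arrays labelled vehicle and 1779, 1891 and 1867 on those labelled R1881 (2.47-fold lower than labelled vehicle). Spermine synthase SMS measured 626, 589 and 654 against 1891, 1870.0 and 1858 (3.01-fold lower), and ARG2, mitochondrial arginase, 236, 212 and 239.6 against 939, 935 and 930.4 (4.09-fold lower). AZIN1, the antizyme inhibitor that protects ornithine decarboxylase, rose (2.20-fold). In fatty acid synthesis 7 of 18 fell and 3 rose (median -0.09): FASN, fatty acid synthase, measured 367, 312 and 377 against 1046, 857 and 1075 (2.81-fold lower), while ACLY (-0.71), ACACA (-0.64) and the regulator SREBF1 (-0.72) fell and ELOVL6 (1.00) and ACSL1 (0.89) rose. A further, dim probe set of FASN gave -0.13, not called. Cholesterol genes were evenly split, 8 up and 8 down of 26 (median -0.03). NPC1, which exports cholesterol from lysosomes, rose (0.93) and SCAP, the escort of the SREBP factors, fell (-0.67), while HMGCS1 did not pass (0.09, adjusted p = 0.532). Without gedunin replicate 2, 5 cholesterol genes were lower.

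Most genes of the G2 phase and of mitosis rose. Of 73 measured mitosis genes 55 rose, 1 fell and 17 did not pass (median 0.65), beside 11 up and 10 down of 55 replication genes (median 0.04). NDC80 of the outer kinetochore measured 160.1, 163 and 152 on the gedunin arrays and 31.0, 39.3 and 22.6 on the arrays labelled vehicle (5.25-fold). HMMR, a spindle protein, measured 546, 544 and 514 against 101, 109 and 97.7 (5.23-fold), and CKS2, a subunit of cyclin-dependent kinases, 1809.8, 1916 and 1837 against 354, 375 and 363 (5.10-fold, adjusted p = 7.06e-12). On the arrays labelled R1881 these genes lay between the others, with means of 86.2 ± 10.4, 244 ± 24.7 and 823 ± 0.90. CDC20, the activator of the anaphase-promoting complex, rose 4.55-fold and DLGAP5 4.55-fold. Cyclin B1 (CCNB1) measured 751, 680.1 and 717 against 192, 223 and 205 (3.47-fold) and cyclin B2 (CCNB2) 501, 495 and 494 against 134, 139.8 and 124 (3.75-fold). Not all members followed: CDK1, the kinase these cyclins activate, measured 301, 314 and 326 against 260.1, 329 and 281 and did not pass (0.12 ± 0.08, adjusted p = 0.348). The proliferation marker MKI67 did not pass in its brightest probe set (0.13 ± 0.08, adjusted p = 0.256), and 2 dimmer probe sets, at 0.21 and 0.25, did. KIF22, a chromosome-arm kinesin, was the member that fell (2.88-fold lower), and its values on the arrays labelled R1881 (161, 164 and 155) were close to those on the gedunin arrays (138, 144 and 159.8). CDK1 passed when labelled vehicle replicate 2 was left out (0.21, adjusted p = 0.0452).

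Replication genes that fell included ORC5 (-0.79), the ribonucleotide reductase subunit RRM2 (-0.75), the licensing inhibitor GMNN (-0.52) and the helicase subunit MCM7 (-0.47), and those that rose included DBF4 (0.74), ORC3 (0.56) and TYMS (0.47). PCNA, the sliding clamp, did not pass (0.10, adjusted p = 0.314). Of 33 genes of G1 cyclins, their kinases and inhibitors 6 rose and 7 fell (median -0.02). CDKN1A, which encodes the inhibitor p21, measured 939, 874 and 929.6 against 540.0, 514 and 537 (1.72-fold, adjusted p = 2.15e-07), CDKN3, a phosphatase gene that peaks late in the cycle, rose by 1.28, and CDK2 (-0.76) and cyclin D1 (CCND1, -0.46) fell. Of 39 replication-linked histone genes and variants 12 fell and 2 rose (median -0.11). H2BC21 measured 705, 669 and 708 against 1351, 1405 and 1359 (1.98-fold lower), and H1-10 (-1.01) and H1-2 (-0.74) were lower, while the variant H2AX rose (0.85). Many histone genes are near-identical copies that their probe sets cannot fully separate.

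Tubulin and actin genes rose in 11 of 32 cases and fell in 5 (median 0.04). TUBB2A, a beta-tubulin, measured 410.1, 415 and 408 on the gedunin arrays, 82.6, 86.1 and 85.4 on the arrays labelled vehicle and 156, 155 and 155 on those labelled R1881 (4.85-fold over labelled vehicle). TUBA4A rose (1.01) and vinculin (VCL, -0.84) and tropomyosin 1 (TPM1, -0.77) fell. Beta-actin (ACTB) did not pass (-0.15 ± 0.05, adjusted p = 0.0585), and GAPDH, often used as a reference gene, passed with a rise of 0.22 ± 0.05.

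GDF15, a secreted member of the TGF-beta family that many stresses induce, had the largest rise outside the antioxidant lists and ACKR3. It measured 5135, 4868 and 5006 on the gedunin arrays, 530.0, 553 and 514 on the arrays labelled vehicle and 439, 413 and 370.0 on those labelled R1881 (9.40-fold over labelled vehicle, adjusted p = 7.06e-12). A further, dim probe set of GDF15 gave 0.19, not called. Of 22 p53-linked stress genes 8 rose and 3 fell (median 0.07). GADD45A, a growth arrest gene, rose from 88.7 ± 5.11 to 212 ± 18.6 (2.38-fold), whereas MDM2 (0.28, adjusted p = 0.139) and BAX (-0.12, adjusted p = 0.431) did not pass. Apoptosis regulators were near the background, 5 up and 5 down of 36 (median 0.01), beside 15% higher and 11.9% lower over all genes. CASP4 (0.92, dim) and BNIP3 (0.61) rose, the pro-survival gene BCL2L1 fell (-0.36), and MCL1 did not pass (0.12). MDM2 passed when labelled vehicle replicate 1 was left out (0.41, adjusted p = 0.0392). With the mean of all probe sets of a gene 9 apoptosis genes were higher, and with the probe set of largest variance 8.

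Among 32 genes of TGF-beta and BMP signalling 10 rose and 3 fell (median 0.02), and the rises included BMP response genes. ID1, an inhibitor of helix-loop-helix factors and a direct BMP target, measured 2472, 2399 and 2481 on the gedunin arrays and 1019.7, 1002 and 982 on the arrays labelled vehicle (2.45-fold, adjusted p = 1.26e-09). ID3 measured 606, 598 and 603 against 256, 272 and 237 (2.37-fold). SMAD1, which carries the BMP signal to the nucleus, measured 209, 209.8 and 192 against 51.1, 50.5 and 58.4 (3.82-fold), though a dim further probe set gave 0.26. The decoy receptor BAMBI rose (1.30), and the BMP receptor BMPR1B (-1.06) and the androgen-induced PMEPA1 (-0.69) fell. The ligands BMP2 (0.01), BMP4 (-0.07) and BMP7 (-0.07) did not pass. On the arrays labelled R1881, BAMBI (225 ± 6.49) and ID3 (517 ± 7.16) were also above their levels on the arrays labelled vehicle (78.2 ± 8.53 and 255 ± 17.5).

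Of 41 genes of MYC and nucleolar factors 16 fell and 2 rose (median -0.14). MYC measured 314, 298 and 342 on the gedunin arrays, 3 equal values of 467 on the arrays labelled vehicle and 938, 1009 and 946 on those labelled R1881 (1.47-fold lower than labelled vehicle, adjusted p = 1.48e-05). RRS1 (-0.61) and NOP16 (-0.52), both ribosome assembly factors, fell, and the polymerase subunit POLR1D rose (0.71). Of 52 cytosolic ribosomal protein genes 1 rose and 1 fell, with log2 fold changes between -0.16 and 0.20; 3 rose and 7 fell with an intensity trend and robust prior. Translation factors were split, 8 up and 7 down of 33 (median 0.03), with EIF5 highest (0.77) and EIF2B4 lowest (-0.60).

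The remaining metabolic and signalling lists had medians near 0. Their counts stand beside 15% higher and 11.9% lower over all genes. Of 65 respiratory chain genes 4 rose and 9 fell (median -0.02), with NDUFC1 of complex I lowest (-0.52). Of 40 glycolysis and hypoxia-linked genes 13 rose and 6 fell (median 0.03): P4HA2, a collagen prolyl hydroxylase, rose 2.16-fold and ALDOA (aldolase A) 1.48-fold, and HK2 (hexokinase 2) fell (-0.78). Immediate early genes and ERK feedback genes rose in 6 and fell in 4 of 41 cases (median 0.03), led by KLF10 (1.09) and the phosphatase DUSP1 (0.80), with KLF5 lowest (-0.77). DNA repair and checkpoint genes were evenly split, 13 up and 13 down of 66 (median 0.04). BARD1, the partner of BRCA1, rose from 63.6 ± 11.1 to 162 ± 15.3 and was 579 ± 57.8 on the arrays labelled R1881, and the Ku subunit XRCC5 fell (-0.81). Interferon-stimulated genes rose in 7 and fell in 2 of 37 cases (median 0.00), none by 2-fold. Counts in these lists moved with single arrays: 5 respiratory chain genes were lower without gedunin replicate 2, and 8 DNA repair genes were higher without gedunin replicate 1 or labelled vehicle replicate 3. Higher interferon-stimulated genes numbered 3 without gedunin replicate 2 and 4 without labelled vehicle replicate 2 or 3. Higher respiratory chain genes numbered 11 with an intensity trend and robust prior, 8 with an offset of 32 before log2 and 7 among genes above the overall median, and lower ones 13, 12 and 10.

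Markers were read to check the cells. Luminal epithelial markers that define LNCaP were present, with KLK3, KRT18 (3985 ± 23.7 on the gedunin arrays and 8623 ± 253 on those labelled vehicle) and KRT8 (732 ± 67.7 and 2196 ± 78.3) well above background, and of 19 members 11 fell and 5 rose (median -0.25). The adhesion genes CDH1 (0.52) and EPCAM (0.52) rose. All 13 leukocyte markers and all 9 endothelial markers measured missed the threshold, with log2 fold changes of -0.15 to 0.10 and -0.12 to 0.08. A missed threshold does not show whether such cells are present. Below the lowest array median in both groups were 9 of the 13, 7 of the 9 and, among basal markers, 7 of 10, so not all were at background level. Of 10 basal markers 1 rose, ITGA6 (0.30), and KRT5 and KRT14 were below the lowest array median in both groups (37.9 ± 1.42 and 18.7 ± 0.62 on the gedunin arrays). Of 16 fibroblast markers 2 rose, FN1 (0.62) and VIM (0.30), and COL3A1 and LUM were below the lowest array median. Only 6 of the 16 were below it in both groups. Of 15 neuroendocrine markers 2 rose, ENO2 (0.60) and NTS (0.37), and CHGA was at 23.5 ± 0.72 against 24.0 ± 0.30. In this list 9 of the 15 were below the lowest array median in both groups, and DDC, given above, was well above it. Summed over its measured members, the fibroblast list lay between 1715 and 1735 on the gedunin arrays and between 1452 and 1558 on those labelled vehicle. For the neuroendocrine list these sums lay between 1496 and 1518 and between 1297 and 1368. The part of such cells in other results was not tested. VIM did not pass when gedunin replicate 1 was left out (adjusted p = 0.0521).

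Outside the lists, the 20 largest rises and falls also held GPNMB, a transmembrane glycoprotein gene (5.96-fold higher), and TNFRSF21, death receptor 6 (5.53-fold higher). Among the falls were SLC15A2, a peptide transporter (6.47-fold), GREB1, a hormone-responsive gene (6.11-fold), SOCS2, an inhibitor of cytokine signalling (5.62-fold), HS3ST1, a heparan sulfate sulfotransferase (4.94-fold), MERTK, a receptor kinase (4.69-fold), RLN1, relaxin 1 (4.52-fold), MICAL1, an actin-oxidising enzyme (4.47-fold), and OTULINL (4.37-fold). SLC15A2, GREB1, SOCS2, HS3ST1 and MERTK averaged below 52.4 on the gedunin arrays, and GPNMB on the arrays labelled vehicle. Their folds are thus approximate. Dimmer probe sets of GREB1 (-0.13 and -0.02) were not called, nor was 1 each of HS3ST1 (0.00) and MERTK (-0.06). RLN1 measured 327, 314 and 331 on the gedunin arrays, 1419, 1493 and 1478 on the arrays labelled vehicle and 771, 659.7 and 833 on those labelled R1881, so that its gedunin arrays were the lowest of the 3 groups.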

How the data were processed

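The labels describe 9 one-colour Affymetrix arrays of LNCaP cells, 3 in each of 3 groups. The authors deposited 1 intensity per probe set and array, made with RMA per the submitters' processing notes. Which software ran it, and in what version, is not given in the sources used here. RMA corrects background, quantile-normalizes the arrays and summarises probes. The deposited intensities run from 8.63 to 20189, so they were read as linear, single-channel values and transformed to log2. Of 22277 probe sets, 62 controls were left out, 19064 had 1 gene symbol, 1043 several and 2108 none. Only those with 1 symbol were tested, as 11963 genes, and 19052 of them matched a RefSeq gene by identifier. Each of the 4310 genes with several probe sets was represented by the brightest. Among 115 such genes named here, probe sets were over 1.5-fold apart in 33, and in 22 of these at least 1 was not called.

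A linear model with 1 coefficient per group was fitted to all 9 arrays with limma 3.58.1 in R 4.3.3, with a two-sided moderated test and Benjamini-Hochberg adjustment over all genes (threshold 0.05). It was tested on simulated data. Only 3 arrays a group limit the precision. A fold change from log2 means can differ slightly from the ratio of linear means, and ± with SE refers to the log2 fold change. Alternatives were the fit to 6 arrays, the replicate number as a block, leaving out each array, an intensity trend with robust prior, a filter on dim genes, an offset of 32, other choices of probe set, and renewed normalization.

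Members and all 50 gene lists were chosen with earlier results of these data known. Genes were named by rule: the 20 largest rises and the 20 largest falls among called genes whose groups did not overlap, up to 6 called members per list with the largest change, members that did not pass, and 32 fixed genes, of which 27 were measured. A further 33 genes were named for their role after their values were seen. Promoters came from a RefSeq table (GRCh38.p14).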

Additional observations from a re-analysis of the deposited data

How the results depend on the processing

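The counts of genes called higher, called lower and called at 2-fold, and the 611 called list members, stayed within 1.5-fold of the reported counts under the alternatives run, with 1 exception. An offset of 32 added before log2, which shrinks ratios of dim genes, left 88 genes at least 2-fold higher instead of 141. Leaving out 1 array at a time gave 1554 to 1733 higher and 1181 to 1298 lower genes, 138 to 148 and 115 to 128 at 2-fold, and 557 to 579 list members. Of 100 list counts, 5 of at least 5 members and 13 smaller ones moved by over 1.5 times when 1 array was left out. Centring each array on its median moved the median of all genes from -0.01 to -0.02.

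Replicate numbers are shared across groups, but same-numbered gedunin and labelled vehicle arrays did not deviate together (correlations of -0.07, -0.10 and -0.04 across genes), so the numbers were not taken to pair the samples. With the replicate number as a block, 1786 genes were higher and 1392 lower, 141 and 123 at 2-fold, and 613 list members were called. The block took the call of ALAD (adjusted p = 0.059) and brought MDM2 past the threshold (0.28, adjusted p = 0.0217); it left 2 respiratory chain genes higher instead of 4 and 0 ribosomal protein genes lower instead of 1.

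Of 248 named genes, 234 kept their call and direction under each alternative in which they were tested, and 0 reversed. The others were ACTB, AKR7A3, ALAD, CBR4, CDK1, DDC, EIF2S1, IDH1, MCL1, MDM2, MKI67, NNT, PFDN4 and VIM. EIF2S1 (adjusted p = 0.16) and PFDN4 (0.0634) were lost with the probe set of largest variance. ACTB passed in 6 alternatives, with log2 fold changes of -0.15 to -0.18, AKR7A3 in 5 and DDC in 3. ALAD also missed the threshold with the mean of all probe sets (-0.15, adjusted p = 0.205) and with the offset (-0.23, adjusted p = 0.0607). NNT missed it with 6 arrays (adjusted p = 0.0503), the offset (0.14), the mean of all probe sets (0.0761) and the probe set of largest variance (0.353). Lower proteasome genes numbered 5 instead of 3 in 6 alternatives, and lower autophagy and lysosome genes 5 instead of 3 in 3 alternatives that kept all arrays. Signals near background limit the fold changes of dim genes.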

Other observations

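Probe sets that could not be tied to 1 gene were left out of the comparison. Fitted in the same way, 110 of the 1043 probe sets with several gene symbols were higher and 141 lower on the gedunin arrays (24.1% called), 6 and 15 of them at least 2-fold. Of the 2108 probe sets with no symbol, 155 were higher and 137 lower (13.9%), 4 and 21 at least 2-fold.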
